A study of Mus musculus with 6 samples.

Results

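Cytosolic ribosomal protein genes encode the protein part of the ribosome. They were followed here in ATAC-seq peak lists, which give intervals of open chromatin, that is, DNA into which a transposase can insert sequencing adapters. A gene was taken as a ribosomal protein gene when its symbol was Rpl, Rplp or Rps with a number and at most a letter a, l, x or y, which gave 80 of 21887 protein-coding genes of RefSeq on GRCm38.p6, the assembly also called mm10. An interval was a member when the protein-coding gene end nearest to its midpoint, within 100 kb, belonged to 1 of these genes. This held for 763 of 258093 intervals, or 353 of 131410 regions once intervals that overlapped between lists were merged. The cells were E14, an established line of mouse embryonic stem cells, with no engineered change stated in the labels. The first group was kept in 2iL, that is, in N2B27 medium to which LIF and a pair of inhibitors had been added, CHIR99021 against GSK3 and PD0325901 against MEK. The others were collected 48 h and 96 h after 2iL had been replaced by N2B27 medium alone. The labels name an A and a B sample in each of the 3 groups and do not say whether these 2 were separate cultures. The authors' list of a group stood for both together, so there was no spread between samples and no test between conditions could be made. Every comparison below is between single lists.

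Cytosolic ribosomes are built from a large and a small subunit, each a core of ribosomal RNA coated with proteins that are needed in near-equal amounts. The genes for these proteins are short, strongly transcribed in dividing cells and scattered over the genome, and many host small nucleolar RNAs in their introns. Their messenger RNAs typically begin with a C followed by a run of pyrimidines, the 5′ terminal oligopyrimidine or TOP tract, through which mTORC1 and the RNA-binding protein LARP1 set how well they are translated. In mouse embryonic stem cells, withdrawal of 2iL is commonly used to start the exit from naive pluripotency.

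A run of pyrimidines lay across the annotated start in part of the set. Of the 80 genes, 60 had an entry in the RefSeq promoter table, which holds 250 bases before and 50 bases from the start and gives the strand. A run of at least 8 pyrimidines across the start, with a C within 3 bases of it, was found in 15 of the 60 (25%, exact 95% interval 14.7 to 37.9%), against 3.42% of 27025 promoters of all genes in the table. It was found in 1 of 69 promoters of mitochondrial ribosomal protein genes, which encode the ribosome inside mitochondria. The runs were 9 to 21 bases long with a median of 11, and 11 of the 15 genes started on a C. Over all 60 genes, 20 (33.3%) started on a C, against 13.7% of 17492 protein-coding genes. The windows below hold 41 bases with the start at base 21, 20 bases on each side, from RefSeq on GRCm38.p6, with the pyrimidine run in capitals. The first 5 show such a run in genes of both subunits, with high and low accessibility in the peak lists. Of these, Rps9 starts on a T and not on a C. The last 3 show highly accessible genes whose annotated start has no such run.
Rpl15 (chr14:18270966-18271006, - strand): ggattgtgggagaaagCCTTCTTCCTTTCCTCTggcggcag
Rplp2 (chr7:141447631-141447671, + strand): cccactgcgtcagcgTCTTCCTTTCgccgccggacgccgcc
Rps18 (chr17:33955645-33955685, - strand): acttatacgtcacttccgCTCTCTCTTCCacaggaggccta
Rps9 (chr7:3704021-3704061, + strand): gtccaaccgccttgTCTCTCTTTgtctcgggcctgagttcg
Rpl38 (chr11:114668560-114668600, + strand): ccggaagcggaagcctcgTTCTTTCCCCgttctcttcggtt
Rplp0 (chr5:115559447-115559487, + strand): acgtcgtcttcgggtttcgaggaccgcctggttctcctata
Rpl34 (chr3:130730378-130730418, - strand): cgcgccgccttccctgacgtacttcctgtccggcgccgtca
Rps13 (chr7:116334170-116334210, - strand): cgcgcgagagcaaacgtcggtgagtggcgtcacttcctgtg

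Rpl15, a protein of the large subunit core, had the run at the start with the highest fold of the family, and a run was also present at the weakly listed starts of Rps18 and Rpl38. Rplp0, Rpl34 and Rps13, the genes next to Rpl15 in fold in the 2iL list, had none at the annotated start. A run that did not span the annotated start was not counted.

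Short DNA motifs were counted in the same 300-base promoters on both strands, and a match describes letters only. The ETS family core CCGGAAG was held by 23 of 60 ribosomal protein promoters (38.3%, 26.1 to 51.8%), against 9.14% of all promoters, 17.8% of protein-coding promoters whose start lay in a 2iL interval, and 34.8% of the mitochondrial set. The element TCTCGCG was held by 12 (20%, 10.8 to 32.3%), against 2.72% of all promoters, 5.67% of those with a listed start and 5.80% of the mitochondrial set. The GC box GGGCGG was held by 34 (56.7%), against 35.9% of all and 68.4% of listed promoters. The YY1 core AAGATGG was in 9, the NRF1 core GCGCATG in 7, the TATA box TATAAA in 7 and the E-box CACGTG in 5 of the 60, against 6.46%, 4.01%, 14.2% and 7.2% of all promoters. Of listed promoters, 6.86%, 7.17%, 6.32% and 10.5% held them, in the same order. The median GC content was 56.8%, against 56.3% over 17492 protein-coding genes. Matches to CCGGAAG and AAGATGG can share the letters AAG, and the E-box reads the same on both strands.

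Whole promoters are printed for 4 genes that mark the range of the peak data: Rpl15, with the highest fold, Rps2, a small subunit protein of the mRNA entry side whose start lies 1942 bp inside the gene's outer boundary, and Rpl10l and Rpl39l, paralogues expressed mainly in the testis and the ones whose start intervals were absent from the 96 h list. Capitals mark matches to the motifs above on either strand and the pyrimidine run.
Rpl15 (chr14:18270937-18271236, - strand): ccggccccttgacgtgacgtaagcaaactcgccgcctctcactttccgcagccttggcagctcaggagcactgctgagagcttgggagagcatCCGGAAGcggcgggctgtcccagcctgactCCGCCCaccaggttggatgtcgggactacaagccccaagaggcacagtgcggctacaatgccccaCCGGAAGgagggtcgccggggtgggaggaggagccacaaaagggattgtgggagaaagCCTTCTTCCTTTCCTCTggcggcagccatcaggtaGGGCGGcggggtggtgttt
Rps2 (chr17:24719813-24720112, + strand): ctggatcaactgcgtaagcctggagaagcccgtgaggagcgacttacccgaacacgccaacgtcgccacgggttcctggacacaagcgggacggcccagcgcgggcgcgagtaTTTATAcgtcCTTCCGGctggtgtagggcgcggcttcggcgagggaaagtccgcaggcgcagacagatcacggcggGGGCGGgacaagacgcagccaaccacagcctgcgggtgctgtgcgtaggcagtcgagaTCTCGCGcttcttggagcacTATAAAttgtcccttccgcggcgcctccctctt
Rpl10l (chr12:66284352-66284651, - strand): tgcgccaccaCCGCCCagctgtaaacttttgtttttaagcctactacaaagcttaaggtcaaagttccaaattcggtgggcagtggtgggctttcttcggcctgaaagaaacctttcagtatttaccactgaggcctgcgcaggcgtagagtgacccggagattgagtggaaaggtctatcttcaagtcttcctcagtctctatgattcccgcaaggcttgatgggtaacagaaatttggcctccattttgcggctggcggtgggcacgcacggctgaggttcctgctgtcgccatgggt
Rpl39l (chr16:10169978-10170277, + strand): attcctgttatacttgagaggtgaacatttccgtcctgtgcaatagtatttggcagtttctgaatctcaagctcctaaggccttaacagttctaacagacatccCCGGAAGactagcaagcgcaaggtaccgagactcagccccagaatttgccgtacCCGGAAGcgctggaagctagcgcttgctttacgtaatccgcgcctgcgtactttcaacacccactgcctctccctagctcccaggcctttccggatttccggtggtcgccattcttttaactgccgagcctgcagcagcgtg

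Rpl15 held 2 ETS cores, GC boxes on both strands and a run of 17 pyrimidines. Rps2 held 2 TATA matches, an ETS core, a GC box and the TCTCGCG element. Rpl39l held 2 ETS cores and no other match, and Rpl10l held a single GC box match.

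Nearly all ribosomal protein genes were open at an end of the gene in every list. An interval with its midpoint within 1 kb of an end was found for 77, 76 and 73 of 80 genes in the 2iL, 48 h and 96 h lists, against 64.3%, 66.6% and 65.0% of all protein-coding genes. Of 78 mitochondrial ribosomal protein genes, 76, 76 and 75 had such an interval. Among the ribosomal protein genes it was found for 73 in all 3 lists and for 3 in none. The shares of all protein-coding genes were 60.9% and 30.5%. Listing differed between lists for 4 genes, Rpl10l, Rpl39l, Rpl7 and Rpl22, against 8.58% of all protein-coding genes. Using the annotated start itself, which is known for 60 genes, 56, 55 and 55 starts lay inside an interval, against 61.4%, 63.8% and 62.9% of 17492 genes. In the mitochondrial set all 69 starts lay inside an interval in each list. At ribosomal protein genes the summit of the start interval lay at a median of 60.5, 63 and 49 bp before the start.

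The genes outside this pattern included paralogues and genes with a start inside the outer boundary. Rps27l, a paralogue of Rps27 known as a p53 target, was counted as having no interval within 1 kb of an end, but its annotated start lies 1462 bp inside the gene's outer boundary and was covered in every list, at 15.98-fold enrichment in 2iL, 18.86-fold at 48 h and 18.19-fold at 96 h. Fold enrichments are the authors' values and rank intervals within their own list, so values of different lists are set side by side and are no measure of change. Rpl22, a protein with a role in T cell development in mice, was listed within 1 kb in 2iL and at 48 h only, yet its downstream start, 1290 bp inside the boundary, was covered with folds of 12.73, 11.63 and 16.53. Rpl7 was within 1 kb in 2iL only, with a fold of 9.06 and a midpoint 840 bp from the end. At 48 h and 96 h an interval that overlapped this one was still listed, with midpoints 1051 and 1048 bp away, just past the limit. Rpl32l had no interval within 1 kb in any list. Its nearest midpoint lay 7735, 7724 and 3266 bp away in 2iL, 48 h and 96 h. Rpl17 had none within 1 kb either, with the nearest midpoint at 1691, 1093 and 1684 bp in the same order. The starts of Rpl10l and Rpl39l were listed in 2iL, with folds of 13.59 and 9.87, and at 48 h, with folds of 13.11 and 6.31, and in no interval at 96 h. Rpl3l, the form of Rpl3 found mainly in striated muscle, had no interval over its annotated starts in any list. Its listed interval, with folds of 16.60, 16.03 and 18.89, lay at its other end, 450 bp from an end of the neighbouring gene Msrb1.

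Labels were checked against marker genes. Of 7 pluripotency genes, 6, 7 and 7 had an interval within 1 kb of an end in the 3 lists, with Esrrb missing in 2iL by this measure. Over all protein-coding genes the shares were 64.3%, 66.6% and 65.0%. Of 4 post-implantation epiblast genes, 3 had such an interval in each list, and of 3 neural ectoderm genes 2, 3 and 3 did. Markers of other cell types were listed too. Of fibroblast genes 2 of 3 were listed in each list, and of trophoblast genes 2, 1 and 2 of 3. Of extraembryonic endoderm genes it was 1, 2 and 3 of 3. Listing at a gene end thus did not separate the cell types, and their part in the results was not tested.

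The intervals at ribosomal protein genes were weaker and narrower than those at most other genes. At ribosomal protein genes the interval nearest to an end had a median fold of 9.0, 8.19 and 10.96 in the 2iL, 48 h and 96 h lists, against 12.54, 12.55 and 13.89 over all protein-coding genes with such an interval. In bulk samples, fewer cells with an open site and a less open site in every cell cannot be told apart. The median was 14.46, 14.80 and 17.21 for mitochondrial ribosomal protein genes. Fold was below the median of all genes for 62 of 77, 65 of 76 and 53 of 73 ribosomal protein genes. Median widths were 861, 760 and 848 bp, against 1066, 1062 and 1067 bp over all genes. Intervals over the annotated start gave a median fold of 9.13, 8.63 and 11, against 13.2, 13.3 and 14.5 over all protein-coding genes. The medians were 9.07, 8.54 and 10.98 for large subunit genes and 8.08, 7.77 and 10.42 for small subunit genes, both under the all-gene medians. Genes with a small nucleolar RNA gene inside had a median fold of 8.62 in 2iL, and genes without one 9.03.

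**Figure D1:**
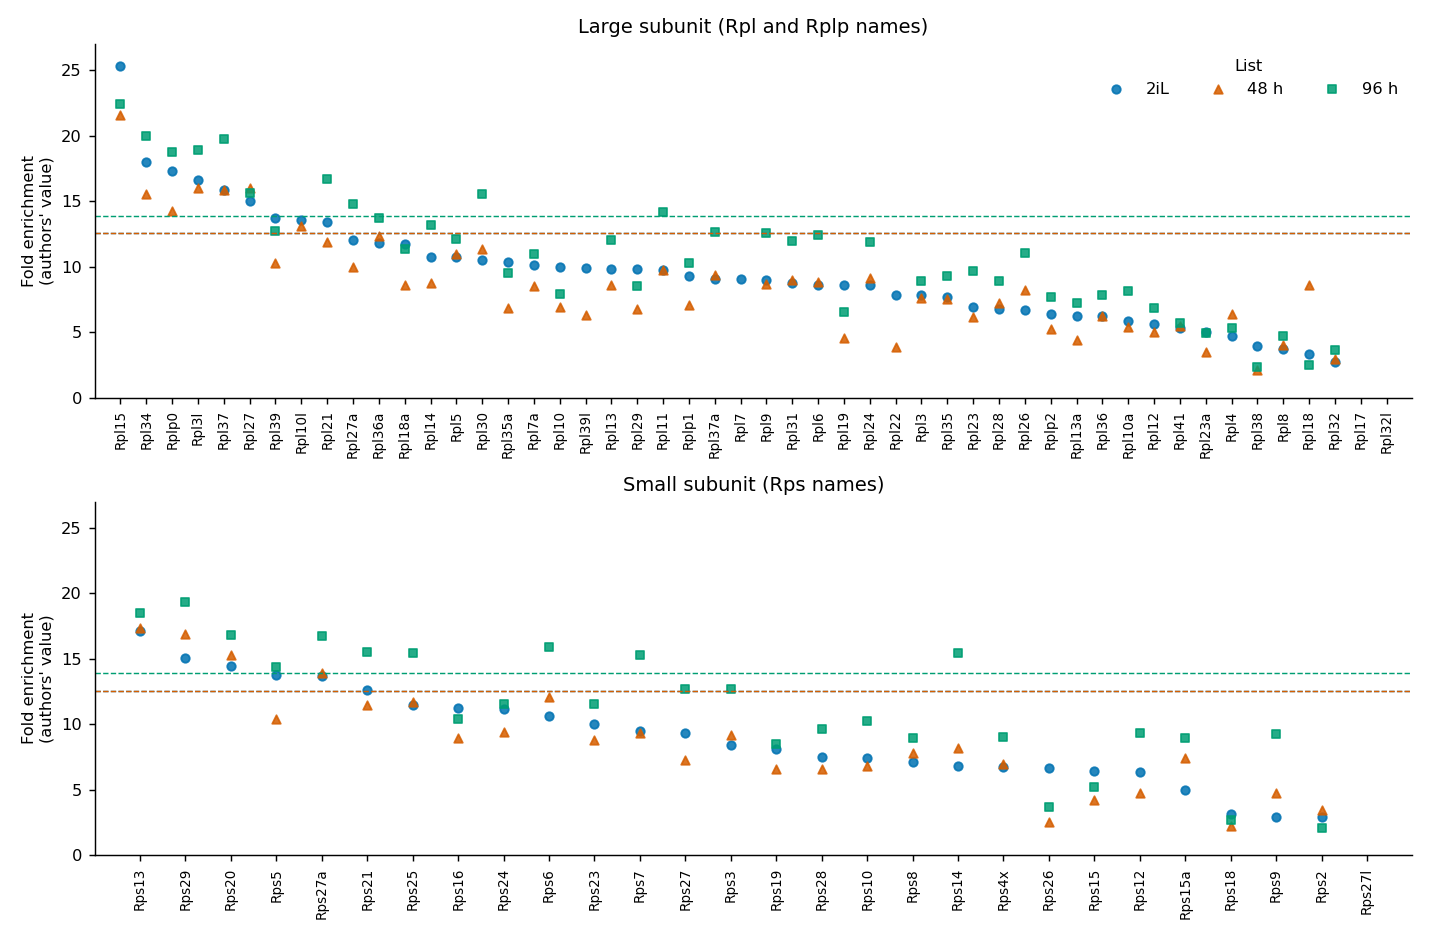
Fold enrichment (y axis, linear, the authors' value) of the interval nearest to an end of 78 of the 80 ribosomal protein genes (x axis, sorted by the 2iL value), with 1 point per list and the median over all protein-coding genes of each list as a dashed line. Most points lie under the dashed lines, 60 of 75 in 2iL, 63 of 74 at 48 h and 51 of 71 at 96 h, and a missing point means no interval within 1 kb.

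Rpl15 led in each list. It had folds of 25.35, 21.57 and 22.41 in 2iL, 48 h and 96 h. Rpl34, the next in 2iL and at 96 h, had folds of 18.01, 15.56 and 19.97. Rplp0, the base of the stalk that recruits translation factors, had 17.30, 14.22 and 18.73. Rps13, a small subunit protein, had 17.13, 17.34 and 18.52. These genes lay above the all-gene median in each list, as did Rpl37, Rps29 and Rpl27, with 15.86, 15.04 and 14.98 in 2iL. The other stalk proteins were lower, with Rplp1 at 9.29, 7.06 and 10.31 and Rplp2 at 6.35, 5.21 and 7.71. Rpl5 and Rpl11, which bind 5S ribosomal RNA and can hold MDM2 when assembly fails, had 10.74, 10.95 and 12.12 and 9.73, 9.76 and 14.19. Rps6, the target of S6 kinase, had 10.61, 12.06 and 15.88, and Rps19, a gene mutated in human Diamond-Blackfan anaemia, had 8.08, 6.60 and 8.50.

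The remaining genes chosen by role lay between these. Among large subunit genes, Rpl3, near the peptidyl transferase centre, had folds of 7.80, 7.58 and 8.89, and Rpl10, which joins late in assembly, had 9.98, 6.90 and 7.92. Rpl39, at the exit tunnel, had 13.74, 10.25 and 12.73. Rpl13a had 6.24, 4.42 and 7.26, Rpl24 8.58, 9.11 and 11.85 and Rpl26 6.72, 8.21 and 11.01. Among small subunit genes, Rps14 had 6.80, 8.18 and 15.43, below the all-gene median in 2iL and at 48 h and above it at 96 h. Rps3, at the mRNA entry channel, had 8.38, 9.16 and 12.71, and Rps20 had 14.42, 15.29 and 16.81, above that median in each list. Rps24 had 11.16, 9.38 and 11.55, Rps25 11.44, 11.68 and 15.44 and Rps27 9.33, 7.28 and 12.67. Rps28 had 7.53, 6.56 and 9.67, and Rps4x, the X-linked form of Rps4, had 6.77, 7.0 and 9.0.

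At the low end stood Rpl32 with 2.75, 2.93 and 3.63 and Rpl8 with 3.75, 4.04 and 4.68. Some low values belonged to an interval at the other end. For Rps2 and Rps9 the interval nearest to an end in 2iL lay at the other end, with folds of 2.93 and 2.95, while the interval over the annotated start had 9.20, 8.14 and 9.49 at Rps2 and 8.81, 4.76 and 9.22 at Rps9. For Rps18 and Rpl38 the interval over the tabled start was low as well. The start interval had folds of 3.18, 2.2 and 2.71 at Rps18, a protein of the head of the small subunit. At Rpl38, known for its part in translating Hox messenger RNAs in mice, the tabled start lies 762 bp inside the gene's outer boundary, and the interval over it had 3.98, 2.57 and 4.95. The tabled start of Rpl18 lies 2604 bp inside the boundary, and the interval over it had 2.2, 1.85 and 2.91. The boundary of Rpl18 had a region of its own, chr7:45714559-45715589, with folds of 10.64, 9.19 and 11.64.

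The intervals over the starts reached less far into the genes at 48 h than in 2iL, and further again at 96 h. In 50 of 54 ribosomal protein genes with the start listed in both lists, the side of the interval inside the gene was shorter at 48 h than in 2iL (92.6%, 82.1 to 97.9%), against 44.9% of 10524 protein-coding genes. The median difference was -96.5 bp, against 0 bp over all genes. At 96 h it was shorter than at 48 h in 2 of 53 genes (3.77%), against 47.6% of all genes, and longer in 51, with a median difference of 46 bp. At 96 h it was shorter than in 2iL in 41 of 54 genes, against 46.9% of all, with a median difference of -14.5 bp. The side before the start moved less: it was shorter at 48 h than in 2iL in 35 of 54 genes, against 39.7% of all, with a median difference of -9 bp. The median reach into the gene was 401.5 bp in 2iL, 304 bp at 48 h and 346 bp at 96 h over the listed starts.

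With each list cut to its 78055 strongest intervals, the gene side was shorter at 48 h than in 2iL in 50 of 53 genes and longer at 96 h than at 48 h in 49 of 51. The width of the start interval was smaller at 48 h than in 2iL in 50 of 54 genes, against 46.3% of all, and at 96 h than at 48 h in 6 of 53, against 53.2%.

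Single genes showed how far the edges lay apart. The start interval of Rpl6 reached 657 bp into the gene in 2iL, 362 bp at 48 h and 655 bp at 96 h, while its outer side lay 205, 204 and 204 bp before the start. For Rpl35a the reach was 632, 335 and 611 bp. For Rpl10a it was 433, 190 and 436 bp, and for Rplp0 519, 342 and 510 bp. In each of these genes the 48 h value was the lowest and the 96 h value was within 25 bp of that in 2iL. Rps9 had 851, 124 and 301 bp, where the 96 h value did not come back to that in 2iL. The 4 genes with no shorter gene side at 48 h were Rpl41, Rpl18, Rps27l and Rps23, with differences of 9 to 24 bp. These genes were named after their values had been seen.

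**Figure D2:**
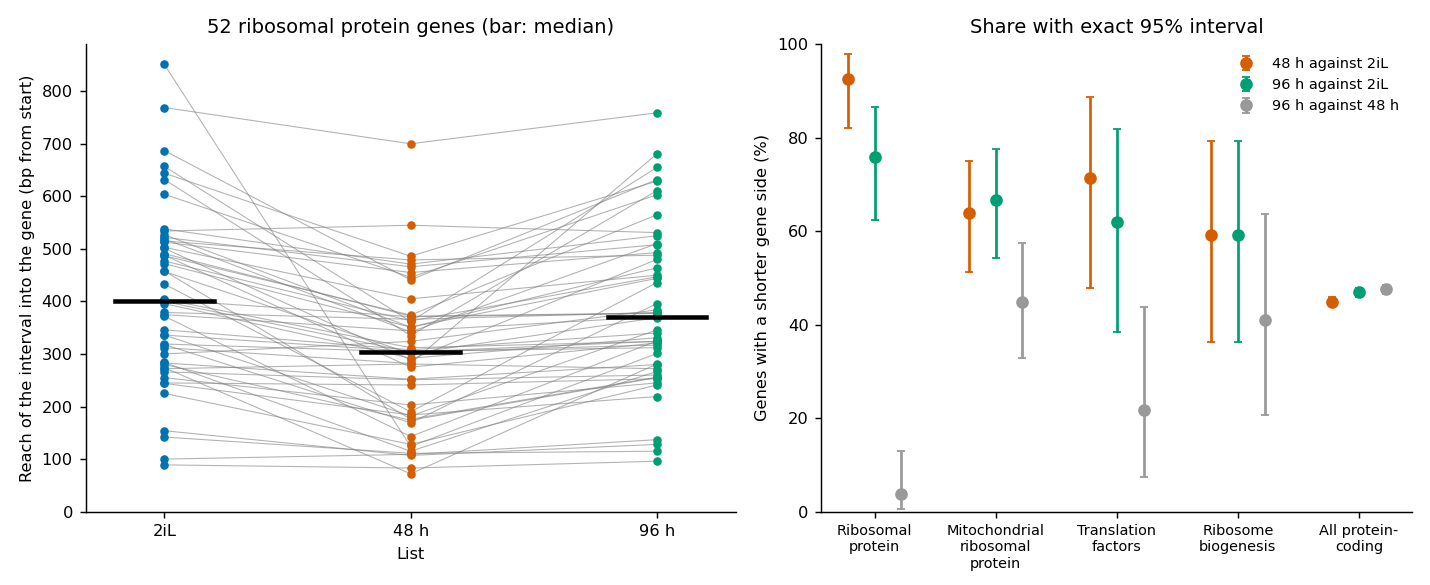
Left, the distance in bp from the annotated start to the end of the interval inside the gene (y axis) in the 3 lists (x axis), with 1 line per ribosomal protein gene listed in all 3 and the median as a bar. The 52 genes have medians of 401.5 bp in 2iL, 304 bp at 48 h and 370 bp at 96 h. Right, the share of genes whose gene side was shorter in the later list, with exact 95% intervals, for 5 gene sets and 3 comparisons. Ribosomal protein genes stand at 92.6% for 48 h against 2iL and 3.77% for 96 h against 48 h.

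In the other gene sets the shares were lower. The gene side was shorter at 48 h than in 2iL in 44 of 69 mitochondrial ribosomal protein genes (63.8%, 51.3 to 75%), with a median difference of -9 bp. It was shorter in 15 of 21 translation factor genes, with -15 bp, and in 13 of 22 ribosome biogenesis genes, with -19.5 bp. Among 2588 protein-coding genes of at most 10 kb it was 47.1%, and among 2626 genes whose 2iL start fold lay within the quartiles of the ribosomal protein genes it was 40.6%. At 500 bp inside the start an interval was present in 19, 4 and 12 of 60 ribosomal protein genes in 2iL, 48 h and 96 h, against 43.8%, 45.2% and 45.1% of all genes.

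Just beyond their other end, where the annotated transcript ends, ribosomal protein genes were listed more often than protein-coding genes as a whole. The position 500 bp past the other end lay in an interval in 21 of 60 genes in 2iL (35.0%, 23.1 to 48.4%), 37 at 48 h (61.7%, 48.2 to 73.9%) and 28 at 96 h (46.7%, 33.7 to 60%). Over 17492 protein-coding genes the shares were 6.40%, 7.11% and 6.13%. Mitochondrial ribosomal protein genes were near that background, with 4, 5 and 5 of 69. Translation factor genes had 5, 7 and 6 of 23 and ribosome biogenesis genes 3, 6 and 5 of 23. Protein-coding genes of at most 10 kb with a listed start had 10.6%, 13.4% and 11.2%. With only genes that have no other protein-coding gene end within 2 kb, 9, 19 and 15 of 35 ribosomal protein genes held such an interval, against 3.95%, 4.25% and 3.56% of 13828 genes.

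**Figure D3:**
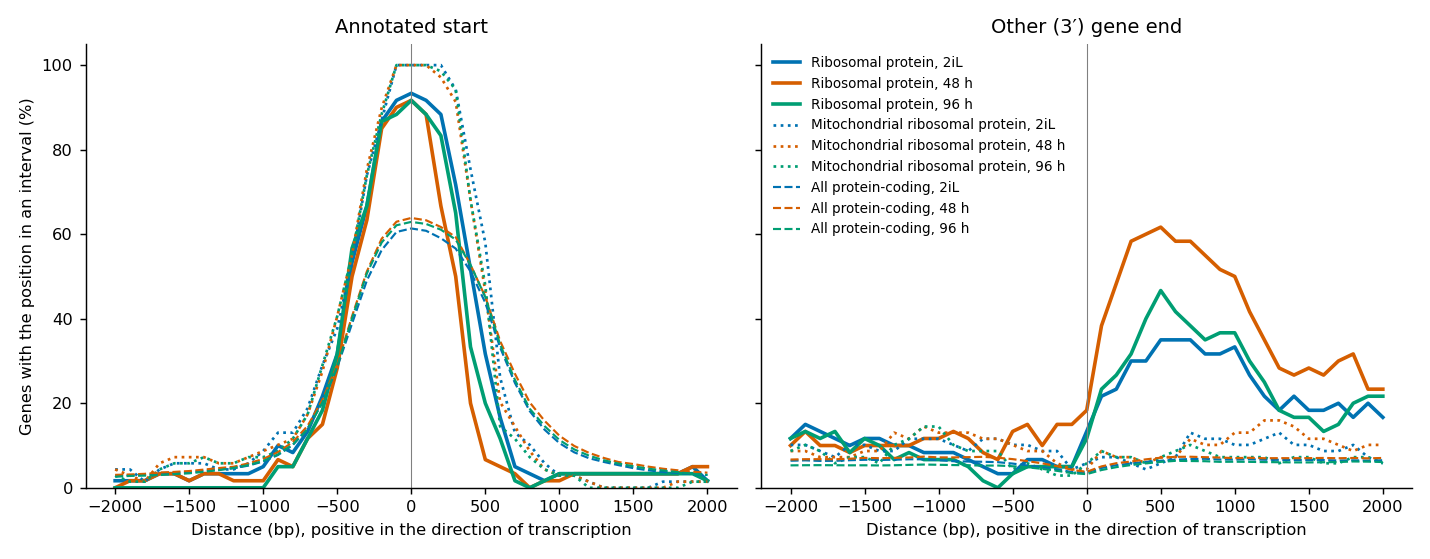
Share of genes (y axis, percent) with an interval over each position around the annotated start (left) and the other gene end (right), at distances in bp along transcription (x axis), for ribosomal protein, mitochondrial ribosomal protein and all protein-coding genes in the 3 lists. On the right the ribosomal protein lines rise past the end to 35.0% in 2iL, 61.7% at 48 h and 46.7% at 96 h at 500 bp, where all genes stay at 6.40%, 7.11% and 6.13%.

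Most differences from the 48 h list were in 1 direction. An interval at this position was present at 48 h and not in 2iL for 17 ribosomal protein genes, against 2.25% of all genes, and in 2iL and not at 48 h for 1, Rpl5, against 1.53%. It was present at 48 h and not at 96 h for 9 genes, against 1.87%, and at 96 h and not at 48 h for 0 of 60, against 0.886%. The counts of 1 and 0 were near these shares of all genes. Each count concerns a single position, so an overlapping interval of the other list could be present without reaching it. At 96 h and not in 2iL there were 12, against 1.90%, and in 2iL and not at 96 h there were 5, against 2.17%. With the stronger 50% of each list the counts were 14 in 2iL, 25 at 48 h and 12 at 96 h, so that the order of 96 h and 2iL turned round. All 3 lists held it for 16 genes (26.7%) and none for 22 (36.7%), against 4.12% and 90.6% of all genes. As a measure of depth, background tags were solved from fold and −log10 p at 4021, 3645 and 3048 summits of the 2iL, 48 h and 96 h lists. The most frequent value was 14.2 in the 2iL list, 15.2 in the 48 h list, 1.07 times as high, and 14 in the 96 h list. With each list cut to its 78055 strongest intervals, the counts past the other end were 20, 37 and 28.

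These intervals were weak. Their median fold was 4.86, 4.15 and 3.65 in 2iL, 48 h and 96 h, at the 12.8, 9.35 and 5.16 percentile of their own lists, and their median width was 953, 1029 and 834 bp. The 3 strongest of each list lay where another protein-coding gene end was within 2 kb. Rpl3l had 16.60, 16.03 and 18.89, Rpl4, a large subunit protein, 10.86, 10.60 and 11.68, and Rpl41, the smallest of the proteins, 9.47, 11.28 and 10.95. Without such a neighbour, Rps19 had folds of 8.41, 7.12 and 8.98, Rpl11 8.23, 5.34 and 4.61 and Rps15a 6.13, 5.46 and 5.21. Genes listed there at 48 h and 96 h and not in 2iL included Rps6, with folds of 4.0 and 3.52, Rps7, with 5.46 and 3.6, Rps12, with 5.45 and 3.71, and Rpl39, with 3.75 and 3.12. Rps26 and Rplp2 were listed there at 48 h alone, with 3.36 and 3.86. At Rps12 and Rplp2 a 2iL interval overlapped the 48 h one without reaching this position, with folds of 3.21 and 2.28. The same held at Rpl35, with a 2iL fold of 3.04.

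**Figure D4:**
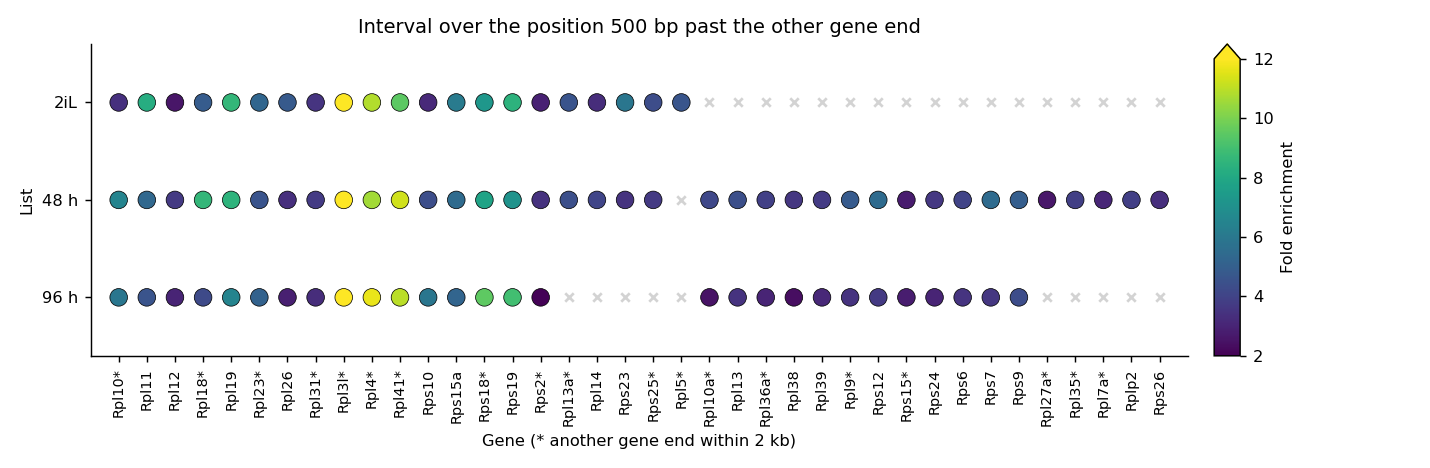
Ribosomal protein genes (x axis) with an interval over the position 500 bp past the other gene end in at least 1 list, by list (rows), coloured by the authors' fold enrichment, with a cross where no interval lay. 16 genes are listed in all 3 rows and 17 at 48 h and not in 2iL, and an asterisk marks another gene end within 2 kb.

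Merged regions were counted as well, as listed or not listed. Within 1 kb of an end there were 124 regions at ribosomal protein genes, and 28 of the 120 present at 48 h were new against 2iL (23.3%, 16.1 to 31.9%), against 12.6% of 16182 regions within 1 kb of any gene end. Of the 96 present in 2iL, 4 were absent at 48 h (4.17%, 1.15 to 10.3%), against 7.12%, which lies inside that interval. From 48 h to 96 h, 26 of 120 were absent (21.7%, 14.7 to 30.0%), against 9.91%. In the same comparison 2 of 96 were new (2.08%, 0.253 to 7.32%), against 4.94%, which lies inside that interval. Between 2iL and 96 h, 12 of 96 were absent and 12 of 96 new (12.5% each), against 10.9% and 11.5%. The shares between 2iL and 96 h were thus near the background.

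By position, of 50 regions nearest to an annotated start, 45 were in all 3 lists (90%, 78.2 to 96.7%), against 86.1% of 11016 such regions of all genes, which lies inside that interval. At 48 h 1 of 48 was new against 2iL (2.08%), against 7.18% of start regions of all genes, while 2 of 49 were absent, against 3.10%. At 96 h against 2iL, 3 of 49 start regions were absent and 1 of 47 was new, against 4.91% and 7.17%, and at 96 h against 48 h, 2 of 48 were absent and 1 of 47 new, against 4.60% and 2.78%. Of 43 regions nearest to the other end, 17 were in all 3 lists (39.5%), near the 39.2% of 3143 such regions of all genes, and 20 of 42 were new at 48 h (47.6%, 32.0 to 63.6%), against 33.5% of 2326 such regions of all genes. That background lay inside the 95% interval. Of these regions 1 of 23 was absent at 48 h, against 26.5%. At 96 h against 2iL, 5 of 23 were absent and 10 of 28 new, against 39.0% and 32.4%, and at 96 h against 48 h, 15 of 42 were absent and 1 of 28 was new, against 31.8% and 16.4%. Ribosomal protein genes had 43 regions at the other end beside 50 at the start, and all protein-coding genes 3143 beside 11016. The 28 new regions lay at 21 genes, 20 at the other end, 1 at a start, that of Rps26, and 7 at genes whose strand was not in the table. Their median fold was 2.75, with a range of 2.14 to 5.46, against 4.84 for the 2032 new regions of all genes. At 96 h 12 of the 28 were still listed and 16 were not (44.7% not listed over all genes). The strongest was at Rps7, chr12:28629254-28630783, 554 bp from the gene end, with a fold of 5.46 at 48 h and 4.09 at 96 h. At Rps6 it was chr4:86852957-86854317, with 4.0 and 3.52, and at Rpl9 chr5:65387118-65388269, with 4.85 and 3.47.

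Regions farther away were counted in the same way. Of regions beyond 1 kb, 44 of 151 were absent at 48 h (29.1%, 22 to 37.1%), against 38.4%, and 58 of 165 were new (35.2%), against 35.4%. At 96 h against 2iL, 72 of 151 were absent (47.7%), against 51.8%, and 50 of 129 were new (38.8%), against 41.5%. At 96 h against 48 h, 61 of 165 were absent (37.0%), against 35.4%, and 25 of 129 were new (19.4%), against 25.2%. Over near and far regions together, 48 of 247 were absent at 48 h (19.4%), against 33.2% of all regions, and 86 of 285 were new (30.2%), against 31.2%. At 96 h against 2iL, 84 of 247 were absent (34.0%), against 44.9%, and 62 of 225 new (27.6%), against 35.5%. At 96 h against 48 h, 87 of 285 were absent (30.5%), against 30.7%, and 27 of 225 new (12%), against 21.2%.

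**Figure D5:**
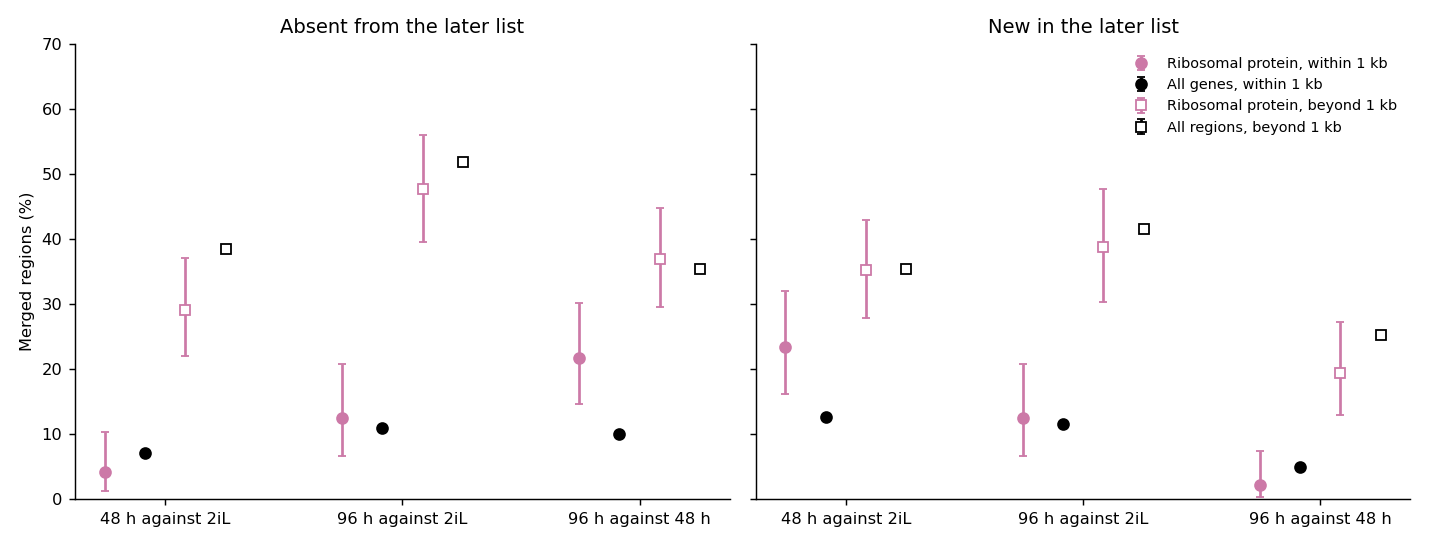
Share of merged regions (y axis, percent, exact 95% intervals) absent from the later list (left) and new in it (right) for the 3 comparisons (x axis), at ribosomal protein genes and over all regions, within 1 kb of a gene end (filled circles) and beyond (open squares). Within 1 kb, new regions at 48 h reach 23.3% at ribosomal protein genes and 12.6% over all genes, and the absent share at 96 h against 48 h 21.7% and 9.91%.

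Member intervals numbered 249, 288 and 226 in 2iL, 48 h and 96 h, at 75, 73 and 72 genes, with a median of 2, 2.5 and 2 per gene. Of these, 93, 118 and 90 lay within 1 kb. Rpl38 had the most, with 15, 20 and 13 intervals in 23 merged regions. Of these regions 7 were in all 3 lists, 8 were absent at 96 h against 2iL and 6 were new. Most lay beyond 1 kb, where 51.8% of all regions were absent and 41.5% new in that comparison. Rpl14 had 18 regions, Rplp1 13, Rps29 12 and Rpl32l 11, while Rpl3 and Rpl31 had 10 each. Rps24, whose gene is mutated in some patients with Diamond-Blackfan anaemia, had 4, 10 and 10 intervals. Rpl34 had 7, 6 and 3. In all 3 lists 5 genes had no member, Rpl7, Rpl7a, Rpl3l, Rps28 and Rps18, since the ends of neighbouring genes lay nearer to each interval. At Rps28 the end of Ndufa7 lay 10 bp away, and at Rpl7a that of Med22 43 bp. Another protein-coding gene end lay within 1 kb for 29 of 80 ribosomal protein genes (36.3%), against 24.8% of all genes and 56.4% of the mitochondrial set. Ribosomal protein genes had a median length of 3170 bp, against 17169 bp, and 28 of them held 55 small nucleolar RNA genes.

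Other genes of protein synthesis were open at their ends in nearly all cases. Over all protein-coding genes the shares with an interval within 1 kb were 64.3%, 66.6% and 65.0% in the 3 lists. Of 30 ribosome biogenesis genes, 29 had an interval within 1 kb in each list, with Npm1 missing, and all 30 translation factor genes had one. Of 12 genes of mTORC1 signalling and TOP messenger RNA control, 10 had one in each list, with Larp1 and Larp4 missing. Their median folds in 2iL were 13.5, 12.5 and 13.4, against 9.0 for the ribosomal protein genes and 12.54 for all genes. Ribosomal protein pseudogenes, copies of spliced messenger RNAs spread over the genome, were mostly not listed. Of 305 with a -ps name, 26, 23 and 16 had an interval within 1 kb of an end in 2iL, 48 h and 96 h (8.52%, 7.54% and 5.25%). Other pseudogenes were not counted, so these shares have no background of their own kind.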

How the data were processed

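ATAC-seq was done on 6 samples, 2 in each of 3 groups. Per the submitters' processing notes, bcl2fastq 2.20.0.422, BWA, SAMtools, Picard and the build mm10 were used. The peak caller, its settings and any shift of reads for the transposase were not given in the sources used here. The authors deposited 1 peak list per group for samples A and B together, and 0 columns of single samples were left unused. The deposited fold is a linear ratio and the deposited p is given as −log10. Summit lines of an interval were joined, keeping the summit with the highest −log10 p. Intervals overlapping by at least 1 bp were merged across lists. Depth is known only as background tags solved from fold and p. Shares have exact (Clopper-Pearson) 95% intervals, for counting error alone, with neighbouring regions taken as independent. Gene positions, promoters and strands came from RefSeq (GRCm38.p6). The strand of 20 genes is not in the table used, among them Rps14, Rpl3 and Rplp1. Exons and introns were not told apart. Python 3.11.15, pandas 2.3.3, numpy 2.4.6, scipy 1.17.1 and matplotlib 3.10.9 were used. Assignment and merging were tested on simulated data, where 100% of 1863 intervals went to their gene end. Genes were named by listing that differs, the 8 highest and 8 lowest 2iL folds, the 8 with most regions, the 8 with most change, and a group by role; other genes were chosen after their values were seen. Single values of 2 genes are not reported here, and both stay in all counts and medians. Members, gene lists and rules were chosen with earlier results of these data known, and the measures of reach into the gene and of the position past the other end were added after the data had been seen.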

Additional observations from a re-analysis of the deposited data

How the results depend on the processing

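No paired analysis was possible because samples A and B of a group share 1 list, and for the same reason no sample could be left out. Of 161 values recomputed under 19 settings, 130 stayed within 1.5 times the reported count or within its 95% interval and 31 moved. With the stronger 50% of each list by −log10 p, member intervals numbered 140, 160 and 128 in 2iL, 48 h and 96 h. Absent and new shares then were 25.7% and 20% at 96 h against 2iL and 25% and 7.69% at 96 h against 48 h, and 12 genes had an interval past the other end at 96 h (14 in 2iL and 25 at 48 h). With a limit of 20 kb the share absent at 96 h against 2iL was 27.5% and the share new at 96 h against 48 h 7.73%. With a limit of 1 kb, member intervals numbered 93, 118 and 90, and absent and new shares were 4.17% and 23.3% (48 h against 2iL), 12.5% and 12.5% (96 h against 2iL) and 21.7% and 2.08% (96 h against 48 h). On the gene's strand alone, 6.67% of promoters held the YY1 core and 30.0% the GC box. Settings chosen after seeing the data moved 3 further kinds of count. Without genes that have another end within 2 kb, 9, 19 and 15 genes had an interval past the other end. At 300 bp inside the start the counts were 43, 30 and 39, and at 400 bp 31, 12 and 20, with 48 h lowest at each distance. Counting only differences of at least 10 bp, the gene side was longer at 96 h than at 48 h in 83.0% of genes. The wider set of symbols, summits in place of midpoints, gene bodies, equal list lengths and an overlap of 50% moved none of the values they were applied to. The cause of the moved values was not tested.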
